A study of Mus musculus and Homo sapiens with 22 samples.

Results

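Genes that the fetal liver expresses, that the adult liver silences and that liver tumours often switch on again were examined for PROX1 occupancy. The set held 9 genes, Afp, Gpc3, Igf2, H19, Dlk1, Prom1, Lin28b, Igf2bp3 and Sall4, of which 8 are among the 21938 protein-coding genes of the mouse annotation and H19 is a long noncoding RNA gene. They were chosen by name. A peak was counted for a gene when its summit, the point of strongest signal, lay in the gene body or within 50 kb of it on either side. This placed 48 of 50159 peaks in liver, 54 of 40531 in mouse embryonic fibroblasts (MEFs) and 19 of 14369 in Hep3B cells around these genes.

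PROX1 is a homeodomain transcription factor that hepatocytes keep from the embryo into adult life. Oncofetal genes fall into several classes: secreted or surface proteins used as tumour markers, imprinted growth genes expressed from 1 parental allele, and RNA-binding proteins and transcription factors of immature cells. In the mouse liver several of them, Afp, H19 and Gpc3 among them, fall silent soon after birth under the control of the zinc finger factors Zhx2 and, for Afp, Zbtb20.

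Libraries were made by CUT&RUN. An antibody tethers a nuclease to the chromatin that carries its target and the fragments cut free are sequenced. Liver came from wildtype C57BL/6J mice of 2 to 3 months without treatment, with an antibody against PROX1 itself (n = 5) or rabbit IgG (n = 5); the nuclei were labelled as hepatocyte nuclei. MEFs came from wildtype C57BL/6N embryos at E13.5 and carried rtTA and tetO-FLAG-Prox1 lentivirus, and Hep3B, a human hepatocellular carcinoma line, carried pLIX-Puro-hsPROX1 lentivirus after puromycin selection. Both cultures received 2 µg/ml doxycycline for 2 days and were profiled with a FLAG antibody (n = 3 each) or IgG (n = 3 each). No uninduced culture was analysed here. Each peak list pools the antibody samples of 1 group, so values carry no replicate spread, the depth of single samples is unknown, and no difference below was tested. Liver differs from the cultures in tissue, in antibody and in carrying its own PROX1 rather than an introduced one, and these cannot be told apart.

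The labelled material was compared with promoter peaks at 5 hepatocyte genes (Alb, Ttr, Apoa1, Hnf4a and Serpina1a) and 5 fibroblast genes (Col1a1, Col1a2, Twist1, Prrx1 and Thy1). Liver had a promoter peak, meaning a summit within 1 kb of any annotated start, at 5 of the 5 hepatocyte and 0 of the 5 fibroblast genes. MEFs had one at 0 and 5, and Hep3B at 0 and 1. Peaks were ranked within their own list by the summit −log10 p that the peak caller assigned, and the percentile is the share of the list ranked below a peak. No normalization of these values between lists is described, so they were not compared between lists. The smallest peak area, the summed significance over a peak, was 500 in liver and 200 in the other lists.

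In liver, 7 of the 9 genes had at least 1 summit in the window, with 69.2% of all protein-coding genes meeting the same rule. In MEFs it was 9 of 9, against 81.3%, and in Hep3B 7 of 9, against 71.9%. Among the 8 protein-coding members alone the counts were 7, 8 and 7. With so few genes, none of these counts lies far from the share of all genes. A promoter peak was present at 2 members in liver (28.3% of all protein-coding genes), 8 in MEFs (56.5%) and 3 in Hep3B (45.2%). Among the 8 protein-coding members alone these counts were 2, 7 and 3. The MEF count fell to 2 when MEF peaks were held to the liver's area of 500, and with 14369 top peaks from each list liver and MEFs had 1 member each. Most of the MEF count thus came from peaks below these limits. The shares of all genes under these limits were not calculated, so the fall cannot be read as particular to the members. Counting the outermost start of each gene alone, the counts of 2, 8 and 3 became 0, 4 and 1, so both liver promoter peaks lay at internal starts.

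What differed most between the genes was the number of summits. The median protein-coding gene held 3 liver, 4 MEF and 1 Hep3B summits in such a window. Afp held 18 in liver, 1 in MEFs and 1 in Hep3B. Igf2 went the other way, with 3 in liver, 18 in MEFs and 1 in Hep3B. Igf2bp3 held 10, 11 and 9, and Lin28b held few, with 0, 2 and 1. The window of Igf2bp3 is long, 230 kb in mouse and 260 kb in human, and per length its summits stood at the 68.1 percentile of all protein-coding genes in liver, 73.4 in MEFs and 88.1 in Hep3B.

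**Figure D1:**
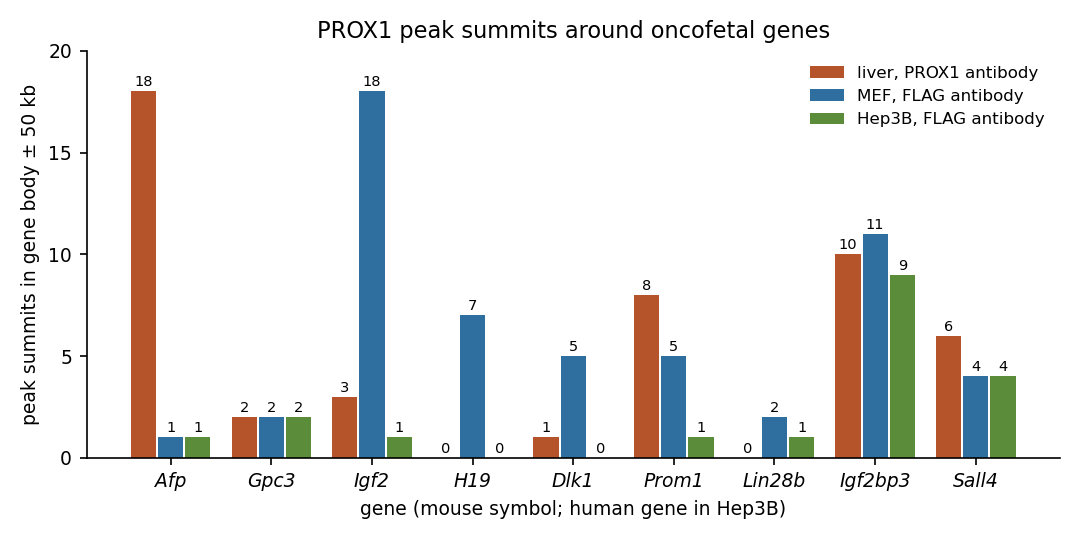
Number of peak summits in the gene body or within 50 kb of it (vertical axis) for each gene (horizontal axis), with 1 bar for each pooled peak list and no replicate error. Afp reaches 18 in liver and Igf2 reaches 18 in MEFs, while Igf2bp3 holds 9 to 11 in every list.

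Of the 8 protein-coding members, 3 (Afp, Prom1 and Sall4) had more liver than MEF summits, against 34.5% of all protein-coding genes, and 4 (Igf2, Dlk1, Lin28b and Igf2bp3) had more MEF summits, against 44.3%. This split depends on the lower area limit of the MEF list. With MEF peaks also held to an area of 500, 5 members (Afp, Gpc3, Prom1, Igf2bp3 and Sall4) had more liver summits and 3 more MEF summits. That limit removes MEF peaks and no liver peaks. The shares of all genes under it were not calculated, so these counts cannot be set against them. The extremes were single genes. The liver count of Afp exceeded its MEF count by 17, at the 98.0 percentile of that difference over all protein-coding genes, and Igf2 stood at -15, at the 0.387 percentile. Some of the Igf2 MEF summits lay in repeated sequence, as described below. At that area of 500, Igf2 still had fewer liver than MEF summits, 3 against 8, and the order of Igf2bp3 turned to 10 against 6. Area is summed over a peak, so this limit kept broad Igf2 MEF peaks with repeated sequence, as at -23024 and -28602 bp. It therefore cannot show how far the Igf2 order depends on the repeats.

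**Figure D2:**
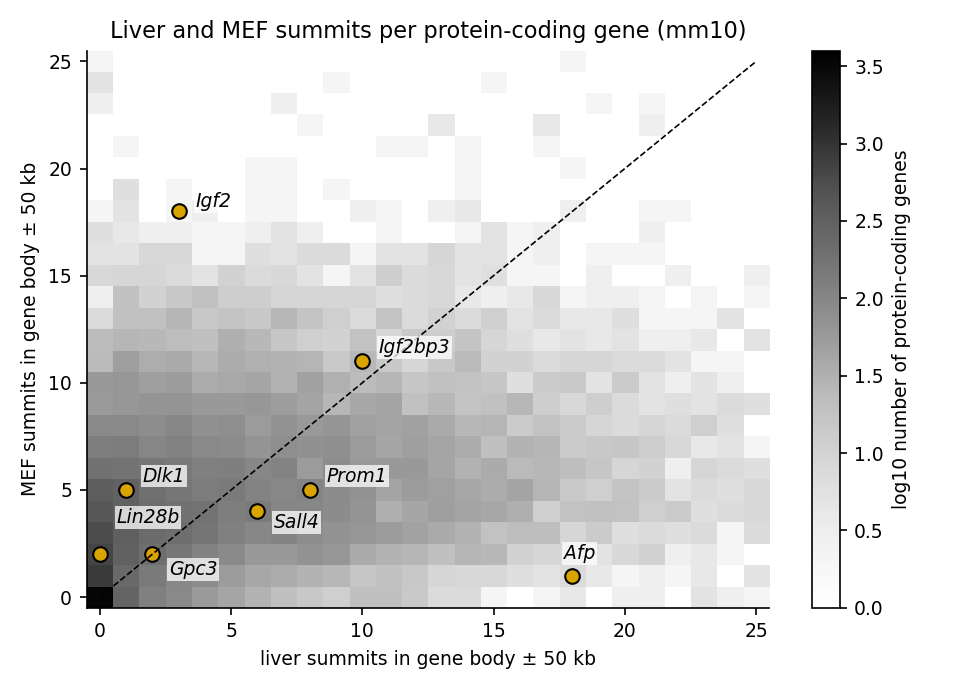
Liver summits (horizontal axis) against MEF summits (vertical axis) in the window of each mouse protein-coding gene, with darker squares for more genes (log10 scale), members as yellow points and a dashed line of equal counts. Afp and Igf2 lie far from the line on opposite sides, and 314 genes with more than 25 summits in a list lie outside the range shown.

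Afp encodes alpha-fetoprotein, the main plasma protein of the fetus and a serum marker of liver cancer. It is a member of the albumin gene family and sits between Alb and Afm (gene body chr5:90490737-90508907, mm10, plus strand). The 18 liver summits put it at the 95.2 percentile of all protein-coding genes by number. Of these, 10 lay upstream of the gene, 1 inside it and 7 beyond its end. The strongest lay 4845 bp upstream of the start, in intergenic sequence, with a summit −log10 p of 18.5 (rank 4384, percentile 91.3). Enhancers upstream of Afp are known to drive its expression in the fetal liver, and the files do not mark them.

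Not all of this signal belongs to Afp by position. The nearest annotated start was that of Afp for 3 of the 18 summits. The next strongest after the upstream peak lay 40663 bp before the Afp start (17.7, percentile 88.5) and 42998 bp before it (16.4, percentile 82.5), on the far side of Alb. At the Alb start itself the peak reached 14.0 (percentile 67.3), and at the Afm start 11.8 (percentile 46.3). Afp alone of these neighbours had no liver peak at its outermost start. The 5 liver peaks above the 75 percentile lay between -4845 and -42998 bp, all upstream.

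The gene body held 1 liver summit, 10229 bp past the start and 565 bp from an internal Afp start, in an intron shared with the annotated gene Gm43449. Its summit −log10 p was 12.9 (rank 21190, percentile 57.8). It is also the only place in the window with a MEF peak. The MEF summit lay 50 bp away, at 10179 bp, with 5.68 (rank 23511, percentile 41.9), and the liver peak covered all 340 bp of it. In Hep3B the AFP window (gene body chr4:73431138-73456174, hg38, plus strand) also held 1 summit, 15444 bp past the start in an intron, with 6.38 (rank 7486, percentile 47.9). Hep3B cells are known to secrete alpha-fetoprotein, and RNA was not part of these data.

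**Figure D3:**
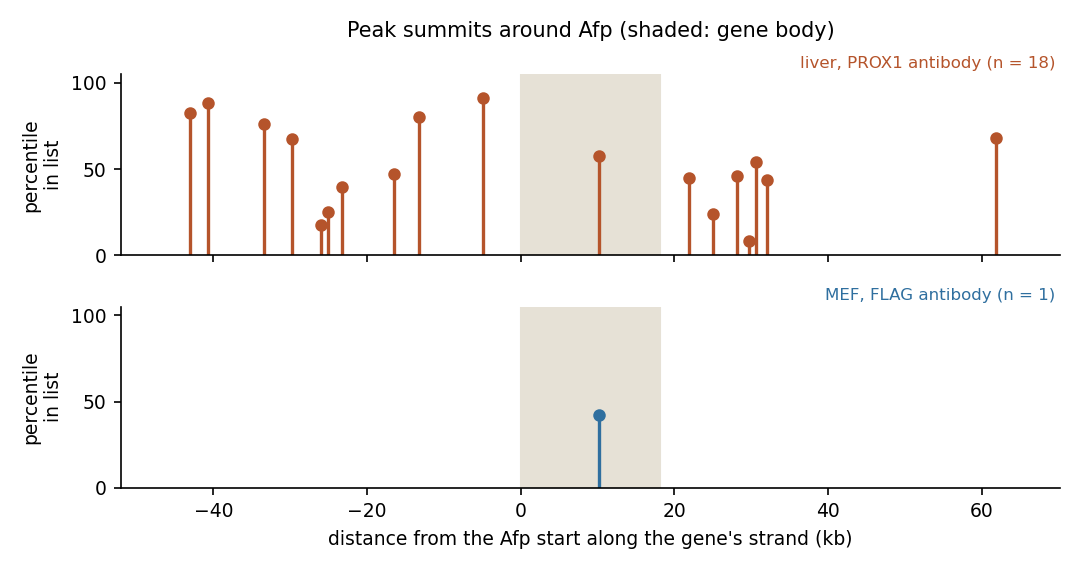
Summits around Afp in liver (upper panel) and MEFs (lower panel) by distance from the gene start in kb (horizontal axis) and percentile within the list (vertical axis), with the gene body shaded. Liver summits spread over both flanks with the highest, 91.3, at -4845 bp, and the single MEF summit stands under the liver summit in the gene body.

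The 201 bases around 2 of these liver summits are printed to set the strongest peak beside the one shared with MEFs. They are from the mm10 plus strand, at chr5:90485792-90485992 and chr5:90500866-90501066, 5′ to 3′, and capitals here and below mark matches to a searched motif.
Afp liver peak 10: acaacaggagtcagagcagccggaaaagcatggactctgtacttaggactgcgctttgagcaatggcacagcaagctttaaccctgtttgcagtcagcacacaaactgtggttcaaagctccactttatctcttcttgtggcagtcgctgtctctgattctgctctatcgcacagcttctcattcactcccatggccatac
Afp liver peak 11: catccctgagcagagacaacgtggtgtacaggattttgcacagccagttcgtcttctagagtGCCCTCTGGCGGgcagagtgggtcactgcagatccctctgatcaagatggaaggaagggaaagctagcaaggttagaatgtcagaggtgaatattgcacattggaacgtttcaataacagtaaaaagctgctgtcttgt
The upstream peak held none of the 9 motifs searched within 150 bp of its summit. The shared peak held the second of 2 core sequences for CTCF, the insulator protein, a match found in 0.873% of liver and 4.13% of MEF peaks. Over the 18 liver peaks of the window the median GC content was 42.7%, with 46.8% over the whole list.

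Gpc3 encodes glypican 3, a cell surface heparan sulphate proteoglycan that marks hepatocellular carcinoma (chrX:52272426-52613950, mm10, minus strand). Its window of 442 kb is the longest of the mouse set and was nearly empty, with 2 summits in each list. In liver they lay 9034 bp upstream of the start (9.52, percentile 16.8) and beyond the end of the gene (9.54, percentile 17.1). In MEFs 1 lay 329 bp past the start (4.35, percentile 6.46) and the other deep in the gene, at 160342 bp (7.45, percentile 81.7). In Hep3B the summits of GPC3 (chrX:133535745-133987100, hg38, minus strand) lay at 1133 bp (6.05, percentile 37.1) and -19561 bp (4.68, percentile 2.73) from the start, with both nearest to GPC3. Peaks near the start were therefore present in both cultures, at the 6.46 and 37.1 percentiles, and the liver had none within 9 kb. Their areas were 206 in MEFs and 310 in Hep3B, below 500, the smallest area in the liver list. At an area of 500 this gene kept 0 peaks in either culture, so the lists' limits alone could give this contrast.

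Prom1 encodes CD133, a membrane glycoprotein of progenitor cells and of tumour-initiating cells (chr5:43993620-44102032, mm10, minus strand). It held 8 liver, 5 MEF and 1 Hep3B summits. The strongest liver peak spanned 2281 bp in an intron, 104338 bp past the start, with 20.6 (rank 1966, percentile 96.1). The next strongest lay beyond the gene end, at 130666 bp (16.0, percentile 80.5) and 153661 bp (15.8, percentile 79.3), both nearest the Fgfbp1 start. Other liver summits lay in introns at 70999 bp (13.0) and 51508 bp (13.1), and before the start at -1340 bp (10.3) and -3203 bp (11.8). The strongest MEF peak also lay beyond the gene end, at 152864 bp (6.66, percentile 66.5), nearest the Fgfbp1 start. The MEF summit nearest the start lay at 1012 bp and 661 bp from another Prom1 start (5.39, percentile 33.9). The single Hep3B peak of PROM1 (chr4:15963076-16084378, hg38, minus strand) lay in an intron at 58040 bp (5.75, percentile 27.4).

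The summit of the strongest Prom1 peak in liver, chr5:43997594-43997794 (mm10, plus strand), is printed because no other surface marker of the set had a peak of this rank. It held ATCGAT and GGAATG, the latter the core of the TEAD site, within 150 bp of the summit, and of these GGAATG lies in the printed stretch.
Prom1 liver peak 3: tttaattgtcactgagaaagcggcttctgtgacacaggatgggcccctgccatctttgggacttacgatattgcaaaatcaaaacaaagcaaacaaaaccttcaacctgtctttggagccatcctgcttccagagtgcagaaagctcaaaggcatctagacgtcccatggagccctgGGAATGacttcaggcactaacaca
Of the whole liver list, 2.49% of peaks held ATCGAT and 15.7% held GGAATG.

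Among the imprinted members, Igf2 encodes the fetal insulin-like growth factor, expressed from the paternal allele, and H19 a noncoding RNA expressed from the maternal allele. Both lie on the minus strand of chromosome 7 (chr7:142650766-142666816 for Igf2 and chr7:142575529-142578143 for H19, mm10). A control region upstream of H19 binds CTCF on the unmethylated maternal allele and keeps Igf2 from enhancers they share. In liver the locus was sparse, with 3 summits around Igf2 and 0 around H19, whose nearest liver summit lay 52618 bp from its start. One of the 3 was strong. It spanned 744 bp in an Igf2 intron, 4811 bp past the outermost start and 135 bp from an internal Igf2 start, with 19.8 (rank 2703, percentile 94.6). The others lay in a coding exon of Ins2, 12072 bp upstream (11.5, percentile 42.0), and between the genes at 36055 bp (9.35, percentile 14.8).

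MEFs covered the same locus densely. The Igf2 window held 18 MEF summits, at the 99.1 percentile of all protein-coding genes, and its peaks covered 21.7 kb of 116 kb. Of these, 15 lay upstream of Igf2 between -5520 and -48079 bp, most of them in annotated introns of the neighbouring gene Ins2. Many were broad but weak: the widest measured 3284 bp with a summit −log10 p of 5.65 (percentile 41.4). The 3 strongest lay at -9038 bp (7.90, rank 4980), at 10567 bp inside the gene (7.88, 231 bp from an internal start) and at -48079 bp (7.67). With the area held to 500 there were 8 left, and among the 14369 strongest MEF peaks, as many as the shortest list has, 5. None of the 18 MEF peaks overlapped a liver peak. The summit windows at -16956, -23024 and -28602 bp shared short stretches of sequence. Further windows of the run held such stretches too, among them those at -18691 and -38047 bp. At least part of this run thus lies in repeated sequence, and how many of the 18 summits do was not counted. Whether the summits there are separate sites was not tested, and the count of 18 should be read with that limit.

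H19 had 7 MEF summits. A set of 3 lay close upstream of its start, at -569 bp (4.15, percentile 3.37), -2192 bp (5.05, percentile 24.0) and -3657 bp (5.28, percentile 31.2). The others lay at Mrpl23 (6.26 and 7.05), in an exon of Nctc1 (4.66) and at -32626 bp (7.02), the last of which was counted for Igf2 as well. The peaks close to H19 were thus low in the list, and 1 of the 7 reached an area of 500. IGF2 in Hep3B (chr11:2129112-2158391, hg38, minus strand) had 1 peak in an intron at 6700 bp (5.11, percentile 10.0) and H19 (chr11:1995166-2004552, hg38, minus strand) had 0, with the nearest summit 147139 bp away.

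**Figure D4:**
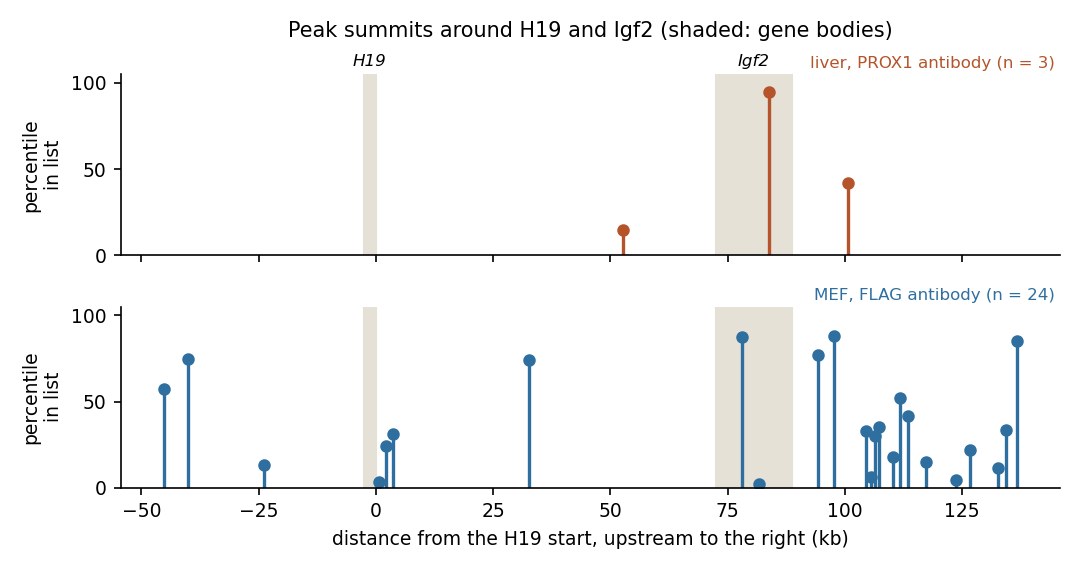
Summits around H19 and Igf2 in liver (upper panel, 3 summits) and MEFs (lower panel, 24 summits) by distance from the H19 start in kb (horizontal axis, upstream to the right) and percentile within the list (vertical axis), with both gene bodies shaded. MEF summits stand close to the H19 start and in a run beyond Igf2, where liver has 1 summit.

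The 201-base windows of 3 peaks are printed, the strong liver peak in Igf2 (chr7:142661905-142662105) and the MEF peaks 5 and 6 upstream of H19 (chr7:142580235-142580435 and chr7:142581700-142581900), all from the mm10 plus strand. The H19 peaks are shown because each held a CTCF core near the summit, in capitals together with ATCGAT in peak 5.
Igf2 liver peak 2: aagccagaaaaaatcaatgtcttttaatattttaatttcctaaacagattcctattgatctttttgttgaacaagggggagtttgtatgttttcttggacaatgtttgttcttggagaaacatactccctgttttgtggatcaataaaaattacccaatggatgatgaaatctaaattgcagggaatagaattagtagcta
H19 MEF peak 5: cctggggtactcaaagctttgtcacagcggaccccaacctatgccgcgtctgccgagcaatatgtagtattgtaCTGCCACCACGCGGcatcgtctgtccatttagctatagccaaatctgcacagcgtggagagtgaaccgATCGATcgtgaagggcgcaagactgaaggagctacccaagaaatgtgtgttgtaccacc
H19 MEF peak 6: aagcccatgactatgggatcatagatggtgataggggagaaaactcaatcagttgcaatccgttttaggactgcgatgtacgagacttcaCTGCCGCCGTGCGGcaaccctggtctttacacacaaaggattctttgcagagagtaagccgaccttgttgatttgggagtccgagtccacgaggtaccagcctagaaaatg
This core was found in 2 of the 54 MEF peaks around the members, both of them here, and in 0.200% of all MEF peaks. It was matched exactly over a long pattern, so its share in the list is low. The second CTCF core was found in 3 of the 54 (5.56%) and in 4.13% of all MEF peaks. The Igf2 liver window held no searched motif and was poor in GC, with 33.9% over 301 bases.

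Dlk1 encodes a Notch-like transmembrane protein of fetal hepatoblasts, preadipocytes and progenitor cells and is imprinted together with Meg3 (chr12:109452823-109463336, mm10, plus strand). MEFs had 5 summits, all with Dlk1 as the nearest start: 1 in the untranslated first part of the gene, 409 bp past the start (5.47, percentile 36.0), and 4 upstream at -3182 bp (6.32), -10759 bp (6.33), -14926 bp (4.93) and -16359 bp (5.79). Liver had 1 summit in the window, 59922 bp past the start and on the Meg3 side, with 9.38 (percentile 15.2). Hep3B had 0 for DLK1 (chr14:100725705-100738224, hg38, plus strand), with the nearest summit 285307 bp away. Peaks at the Dlk1 start and in its upstream flank thus appeared in MEFs alone of the 3 lists as given. The start peak had an area of 394, below 500, the smallest area in the liver list. The peaks at -14926 and -16359 bp were also below it, with 291 and 364. At an area of 500 MEFs kept 2 peaks, at -3182 and -10759 bp. With as many top peaks as the shortest list has, MEFs kept 0. The contrast at the start therefore cannot be separated from the lists' limits.

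Lin28b and Igf2bp3 encode RNA-binding proteins. LIN28B blocks maturation of the let-7 microRNAs, and IGF2BP3 binds and stabilizes transcripts such as that of IGF2. Lin28b (chr10:45376620-45486395, mm10, minus strand) had 0 liver summits in its window, and the nearest lay 275640 bp from its start. The 2 MEF summits lay past the end of the gene, 1 of them 273 bp from the start of Bves (4.83, percentile 17.7), the other at 112927 bp (5.55, percentile 38.2). In Hep3B the peak of LIN28B (chr6:104936616-105083332, hg38, plus strand) lay 19740 bp past the start and 751 bp from an internal start, with 4.77 (percentile 3.47), near the bottom of the list.

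Igf2bp3 (chr6:49085223-49214957, mm10, minus strand) was laid out differently in liver and in the cultures. In liver, 8 of 10 summits lay in introns of the gene and the strongest were far from the start. They reached 21.5 at 65259 bp (rank 1354, percentile 97.3, width 1808 bp), 21.0 at 117581 bp (rank 1674, percentile 96.7) and 18.9 at 65992 bp (rank 3875, percentile 92.3). The first is the highest-ranked liver peak of the whole set. The liver summit nearest the start, at 4198 bp, was among the weaker ones (9.77, percentile 20.0).

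In MEFs 4 summits lay within 5 kb of the start. The highest in the window was among them, at -3112 bp (8.34, rank 3208, percentile 92.1), with others at -940 bp (5.93, percentile 49.0), 1096 bp (4.67, percentile 13.7) and 4368 bp (7.96, rank 4713, percentile 88.4). The second highest lay 49155 bp upstream at the Tra2a start (8.13, rank 4006, percentile 90.1), and the fourth at 175268 bp, beyond the gene end in Gpnmb (7.38, percentile 80.6). Further MEF summits lay at -10879 bp (7.09, percentile 75.5) and near the starts of Gpnmb (5.44) and Malsu1 (4.84), and 6 of the 11 had Igf2bp3 as the nearest start. None lay between 12507 bp and the end of the gene, where liver had 7.

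The human gene, IGF2BP3 (chr7:23310209-23470491, hg38, minus strand), also had summits grouped at its start. It held 9 Hep3B summits, at the 98.9 percentile of all protein-coding genes by number and the 88.1 by density, and 5 of them lay between -3961 and 5318 bp. The peak over the start spanned 2992 bp with its summit at -126 bp (7.02, percentile 66.3), and the strongest near the gene lay at -3961 bp (8.91, rank 344, percentile 97.6), 195 bp from the start of an unnamed annotated transcript. The highest in the window, 9.27 (rank 148, percentile 99.0), lay 86 bp from the MALSU1 start. Hep3B and MEFs share the FLAG antibody and the 2 days of induction and differ in species and cell type.

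**Figure D5:**
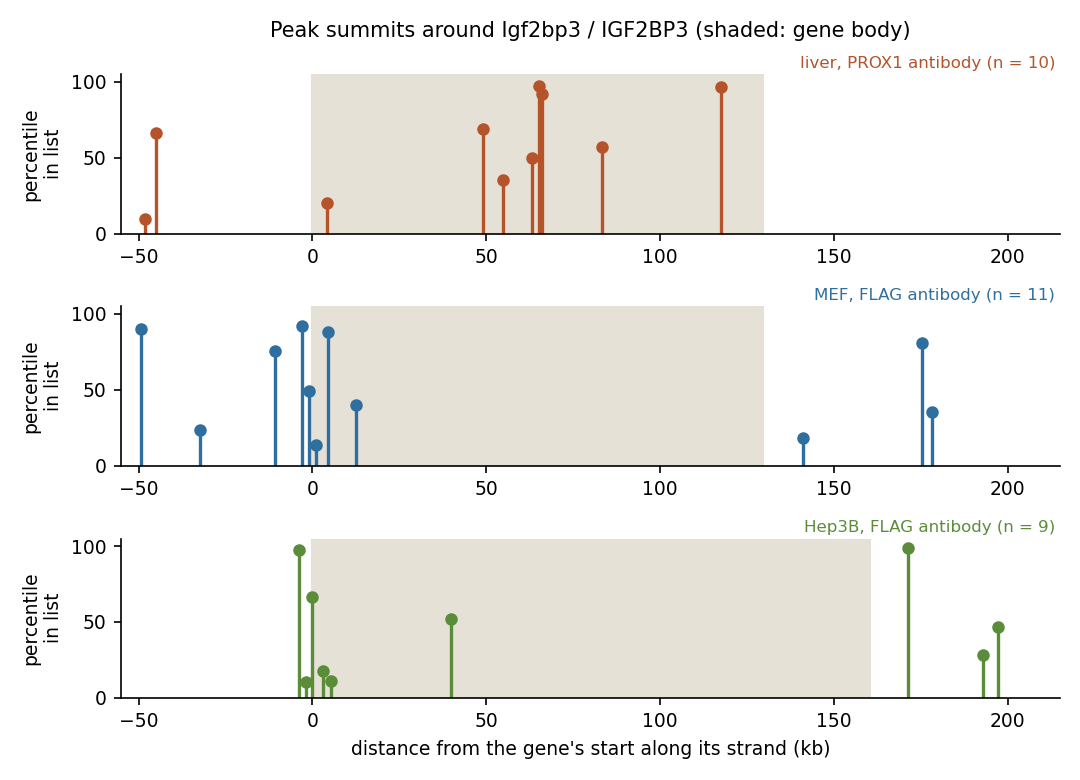
Summits around Igf2bp3 in liver (10) and MEFs (11) and around IGF2BP3 in Hep3B (9) by distance from the gene start in kb (horizontal axis) and percentile within the list (vertical axis), with the gene body shaded. The highest liver summits stand in the gene body. In MEFs and Hep3B high summits stand close to the start and also at neighbouring genes, as at -49155 bp in MEFs.

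Summit windows of 3 peaks show the start region as it is covered in the cultures. The MEF peak is chr6:49217969-49218169 (mm10), and the Hep3B peaks are chr7:23470517-23470717 and chr7:23474352-23474552 (hg38), all from the plus strand.
Igf2bp3 MEF peak 8: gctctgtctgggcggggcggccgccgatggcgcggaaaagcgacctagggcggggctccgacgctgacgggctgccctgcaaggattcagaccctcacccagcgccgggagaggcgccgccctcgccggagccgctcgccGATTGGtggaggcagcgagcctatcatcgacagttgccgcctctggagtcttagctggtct
IGF2BP3 Hep3B peak 7: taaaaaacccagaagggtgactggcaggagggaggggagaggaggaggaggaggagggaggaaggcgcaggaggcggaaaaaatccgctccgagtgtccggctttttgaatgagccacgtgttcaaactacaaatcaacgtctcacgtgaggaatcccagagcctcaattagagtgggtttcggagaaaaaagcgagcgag
IGF2BP3 Hep3B peak 9: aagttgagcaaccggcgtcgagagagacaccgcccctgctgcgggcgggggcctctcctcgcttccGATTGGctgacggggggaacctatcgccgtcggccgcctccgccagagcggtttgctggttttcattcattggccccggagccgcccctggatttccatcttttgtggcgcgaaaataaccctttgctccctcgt
The capitals in the MEF peak and in Hep3B peak 9 are CCAATC on the minus strand, the core of the NF-Y site. It was added to the search after sequences had been seen. On either strand it occurred in 13.0% of the MEF peaks around the members and in 13.1% of all MEF peaks. In Hep3B it occurred in 5 of the 19 peaks around the members (26.3%) and in 16.9% of all peaks, a difference that was not tested. Over 301 bases the GC content was 66.1% in the MEF peak, and 55.8% and 65.1% in the Hep3B peaks.

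Sall4 encodes a zinc finger transcription factor of embryonic stem cells and fetal hepatoblasts (chr2:168748332-168767943, mm10, minus strand). None of its 6 liver summits lay in the gene, and 5 lay in the neighbouring gene Atp9a. All were of low rank, with values from 8.31 to 11.5 and percentiles from 5.13 to 42.1. MEFs had 4, of which 3 lay at Atp9a (5.90 to 5.93) and 1 in Sall4, 2793 bp past the outermost start and 96 bp from an internal start (4.92, percentile 20.2). In Hep3B (chr20:51782331-51802521, hg38, minus strand) SALL4 had 1 peak in an intron, at 2210 bp (6.14, percentile 39.7), and 3 in ATP9A. The peak 1042 bp from an ATP9A start reached 9.79 (rank 49, percentile 99.7), the highest-ranked Hep3B peak of the whole set. A further ATP9A intron peak reached 8.62 (rank 925).

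The ATP9A peak, chr20:51767186-51767386 (hg38, plus strand), is printed as the strongest of its list near any member.
SALL4 Hep3B peak 3: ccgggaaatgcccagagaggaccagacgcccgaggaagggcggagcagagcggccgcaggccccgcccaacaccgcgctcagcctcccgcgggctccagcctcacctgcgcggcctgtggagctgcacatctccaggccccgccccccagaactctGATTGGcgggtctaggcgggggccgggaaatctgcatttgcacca
It held CCAATC on the minus strand. On either strand, 16.9% of all Hep3B peaks held this motif. Its GC content over 301 bases was 70.4%.

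Because liver and MEFs lie on the same build, positions could be compared directly. Of the 48 liver peaks around the members, 4 (8.33%) overlapped a MEF peak, against 18.9% of the whole liver list, and 4 of 54 MEF peaks (7.41%) overlapped a liver peak, against 21.4%. The pairs lay in Afp, at Prom1 on both flanks and in Igf2bp3. The Prom1 pairs stood 153661 bp past the start (liver 15.8, MEF 5.92, summits 160 bp apart) and 49434 bp before it (liver 14.8, MEF 6.03, summits 55 bp apart). In Igf2bp3 the pair lay at 4198 bp in liver and 4368 bp in MEFs, low in the liver list (percentile 20.0) and high in the MEF list (percentile 88.4). A total of 7 members had summits in both windows, against 65.7% of protein-coding genes. At 4 of these no liver peak overlapped a MEF peak, and the share of all genes for which this holds was not calculated.

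The peaks around the members ranked on the whole somewhat below the middle of their lists. Their median summit −log10 p was 11.9 in liver (12.2 over the list), 5.58 in MEFs (5.96) and 6.05 in Hep3B (6.44), at median percentiles of 46.6, 39.2 and 37.1. Above the 75 percentile of their list stood 12 liver, 10 MEF and 4 Hep3B peaks. By annotation, 27 liver summits lay in introns, 15 between genes and 3 in coding exons. The MEF summits were 26 intronic and 20 intergenic, and those of Hep3B 14 and 5. Untranslated exons held 1 further liver and 3 MEF summits, and noncoding exons 2 and 5. The shares over the whole lists were not calculated, so these counts cannot be read as particular to the members. At the limit of the window, the innermost liver summit beyond 50 kb belonged to Afp, 51430 bp from the gene with 21.8, and the outermost within it to Prom1, 49434 bp away with 14.8.

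Sequence at the summits was described with short motifs on both strands of 301-base windows. AGGTCA, the nuclear receptor half-site, occurred in 14 of 48 liver peaks around the members (29.2%, list 32.0%), 13 of 54 MEF peaks (24.1%, list 16.4%) and 4 of 19 Hep3B peaks (21.1%, list 14.1%). ATCGAT occurred in 4 liver peaks (8.33%, list 2.49%) and 1 MEF peak. The forkhead core TGTTTAC was found in 5 liver peaks (10.4%, list 8.18%), and GTTAATNAT, the site of HNF1, in 3 (6.25%, list 2.45%), among them the peaks at the Alb and Afm starts. GGAATG occurred in 13 liver peaks (27.1%, list 15.7%) and 8 MEF peaks (14.8%, list 19.8%). The PROX1 consensus with up to 2 mismatches was present in 5 liver peaks (10.4%, list 6.19%), 1 MEF peak (1.85%, list 5.00%) and 2 Hep3B peaks (10.5%, list 5.02%). These counts are small, no test was made, and a match does not show that a factor binds there. Median GC content was 47.2% in liver (list 46.8%), 50.7% in MEFs (51.8%) and 49.2% in Hep3B (61.1%).

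The pathways around these genes were described with 28 further genes. Summits were present in the windows of 22 in liver, 27 in MEFs and 23 in Hep3B, beside 69.2%, 81.3% and 71.9% of all protein-coding genes. Promoter peaks were present at 10, 18 and 14, beside 28.3%, 56.5% and 45.2%. The counts by pathway that follow are too small to be read against these shares. Of the postnatal silencers of Afp, Zbtb20 held 52 liver summits, 14 in MEFs and 5 in Hep3B, with its strongest promoter peak at 17.0, 10.4 and 8.82. In liver 51 of its summits lay in the gene body, and its counts were not corrected for gene length. Zhx2 held 15, 6 and 3, with promoter peaks in liver (9.70) and MEFs (6.39). Alb, Afm and Gc, the rest of the albumin family, held 19 to 23 liver summits each and at most 2 in either culture. The windows of Alb and Afm overlap that of Afp and count some of the same peaks, so these 2 genes do not repeat the Afp pattern independently.

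In the let-7 and LIN28 pathway, Lin28a, the paralogue of Lin28b, likewise had 0 liver summits, with 4 in MEFs and 1 in Hep3B. The paralogues of Igf2bp3 were sparser in liver, with 1 summit for Igf2bp1 and 4 for Igf2bp2, and had 7 and 4 in MEFs and 4 each in Hep3B. Hmga2, a let-7 target, held 2 liver and 23 MEF summits. In the IGF pathway all 5 genes had liver summits, among them the receptors Igf1r with 9 liver and 14 MEF summits and Igf2r, which clears IGF2, with 16 and 8. Of 6 other imprinted growth genes, 4 had liver summits and 6 MEF summits, with promoter peaks at 1 and 5. Meg3 had 5 liver summits and 1 in MEFs, the latter a promoter peak (6.81). The 6 progenitor markers had promoter peaks at 1 in liver, 3 in MEFs and 4 in Hep3B.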

How the data were processed

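The authors trimmed and aligned paired reads of the 22 libraries to mm10 or hg38 with Bowtie 2 (2.4.2) through nf-core/cutandrun, and consensus peaks of each group came from Genrich (0.6.1) at a q limit of 0.3 and a minimum length of 5 bp. The study describes sites relative to IgG, while the command it gives names no control, so how IgG entered the lists is not given in the sources used here. The deposited lists hold a score, which was not used, the area under the significance curve as signal, the −log10 p and −log10 q of the summit, and the summit's offset. No normalization of the deposited values between lists is described, and pooled lists give no depth per sample.

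Python (3.11.15) with pandas (2.3.3) placed summits against GENCODE M21 (mm10) and GENCODE 44 (hg38). Peaks were ranked by −log10 p, and a liver and a MEF peak counted as shared from 1 bp of overlap. Shares over all protein-coding genes stand beside counts of members. Scripts were tested on simulated data. All 9 members were named with the peak nearest the start and up to 3 of the strongest. The exception is Sall4 in liver, given by its range. Of the related genes, only those sharing a window, the postnatal silencers, paralogues and receptors were named. Gc, Hmga2 and further peaks were named after their values were seen. Members, lists and motifs were chosen with earlier results of these data known, and CCAATC and the second CTCF core were added after sequences were seen. Windows touching untranslated exons were not printed, and 1 other sequence is not reported here. Alternatives were other windows, promoter distances, area and q limits, equal list lengths and other overlap rules.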

Additional observations from a re-analysis of the deposited data

How the results depend on the processing

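Each list pools its replicates, so leaving out single replicates was not possible. No paired analysis was possible because the columns carry no replicate and the result comes from no test. Of 81 alternative values, 49 stayed within 1.5 times the value reported. A summit q below 0.05 and counting any base of a peak in the window moved none. The other alternatives change the peaks kept, the window, or the rule for promoters, starts or overlap. The values that moved are listed here, and why they moved was not tested. With an area of at least 500, MEFs kept 21 peaks and 2 members with a promoter peak, Hep3B kept 6 peaks, 2 members with a summit and 1 with a promoter peak, and 2 peaks were shared between liver and MEFs in either direction. With as many top peaks as the shortest list has, liver gave 4 members with a summit, 13 peaks and 1 member with a promoter peak, and MEFs gave 5, 13 and 1. Within the gene body alone, liver gave 4 members and 13 peaks, MEFs 12 peaks and Hep3B 9 peaks, and 4 members had summits in both liver and MEFs. A window of 10 kb gave 20, 23 and 12 peaks in liver, MEFs and Hep3B, and one of 100 kb gave 89 in MEFs. Peaks whose nearest start was that of a member numbered 20, 19 and 11. A promoter distance of 500 bp left 1 member in liver and 5 in MEFs, and the outermost start alone left 0, 4 and 1. Summits within 100 bp left 2 shared peaks.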
